A study of Mus musculus with 6 samples.

Results

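Oxidative phosphorylation is carried out in the inner mitochondrial membrane by the complexes I to V, and the genes measured here were those of its subunits in mouse hippocampus. Members were the protein-coding rows whose symbols begin with mt-, Ndufa, Ndufb, Ndufc, Ndufs, Ndufv, Sdh, Uqcr, Cox4 to Cox8 or Atp5, which gave 109 genes of 18056 protein-coding rows and 30707 rows with values in all. Of these, 13 were encoded by mitochondrial DNA and 96 by nuclear chromosomes. The study compared hippocampus that received a control virus (3 samples) with hippocampus that received a virus against SFRS8, the older name of the splicing regulator Sfswap (3 samples). The kind of virus, the strain, sex and age of the mice and the time after infection are unstated in the sources used. They also do not say whether libraries come from different animals, so all p-values refer to spread among these 6 libraries, possibly technical spread.

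Complexes I to IV pass electrons from NADH and succinate to oxygen and pump protons (complex II pumps none), and complex V, the ATP synthase, uses the proton gradient to make ATP. Complexes I, III, IV and V combine proteins made inside the mitochondrion with proteins imported from the cytosol, while complex II is wholly nuclear encoded. Neurons depend on this pathway for the ion pumping and vesicle cycling of synapses. Several complex IV subunits exist as a common isoform and a paralog used in particular tissues, such as muscle, lung or testis.

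By role, the members fell into 13 mitochondrially encoded subunits, 74 nuclear subunits common to most tissues, 7 tissue-restricted isoforms, all of complex IV, and 15 assembly or related factors that share the name stems. A mean of at least 1 FPKM (fragments per kilobase of exon, scaled to library size) over the 6 samples was reached by 107 members. The other two were Cox7b2, with 0 to 5 reads in a library, and Sdhaf1, with 1 to 14. Every tested restricted isoform had a control mean of at least 1 FPKM, so none passed through its knockdown values alone.

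Libraries held 16622948 to 18097344 reads, as inferred from the FPKM values, and for a 1 kb gene a single read amounted to 0.0553 to 0.0602 FPKM. The targeted gene Sfswap had 16.7, 18.5 and 19.2 FPKM in controls 1, 2 and 3 and 9.79, 11.3 and 9.58 in knockdowns 1, 2 and 3, which left 56.4% of its control mean (adjusted p = 0.0432, limma with Benjamini-Hochberg adjustment over 14012 genes). That call was lost in 11 of 20 alternatives (adjusted p 0.0238 to 0.148), with Sfswap lower in the knockdown in all 20. Neuron, hippocampal neuron, astrocyte and oligodendrocyte markers were detected in every library. Summed choroid plexus markers (7 genes) came to 49.7, 71.3 and 3068 FPKM in the controls, in the same order, and to 4645, 4328 and 1192 in the knockdowns, so the libraries differed in this tissue within both groups.

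At an adjusted p under 0.05, 1 of the 107 tested members rose (Cox6b2) and 0 fell, where 1.20% of all tested genes rose and 0.228% fell. These are 168 and 32 genes, a split that became 33 and 5, 9 and 6, and 1 and 2 when samples were scaled to the FPKM sum without mitochondrially encoded genes, by the median ratio and to the whole FPKM sum, with 0 members called in each. At an unadjusted p under 0.05 in the same limma fit there were 4 higher and 3 lower members (23.7% of all genes passed, either way). Voom on recovered reads, run on the 90 tested members whose values were all whole reads, called 1 higher and 0 lower. The control and knockdown values did not overlap in 7 tested members with higher knockdown values and in 9 with lower ones, 14.95% of the members. Among all tested genes this was so for 18.0% in the higher and 11.8% in the lower direction. In bulk tissue such as this, fewer cells of a type and less RNA per cell cannot be told apart.

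**Figure D1:**
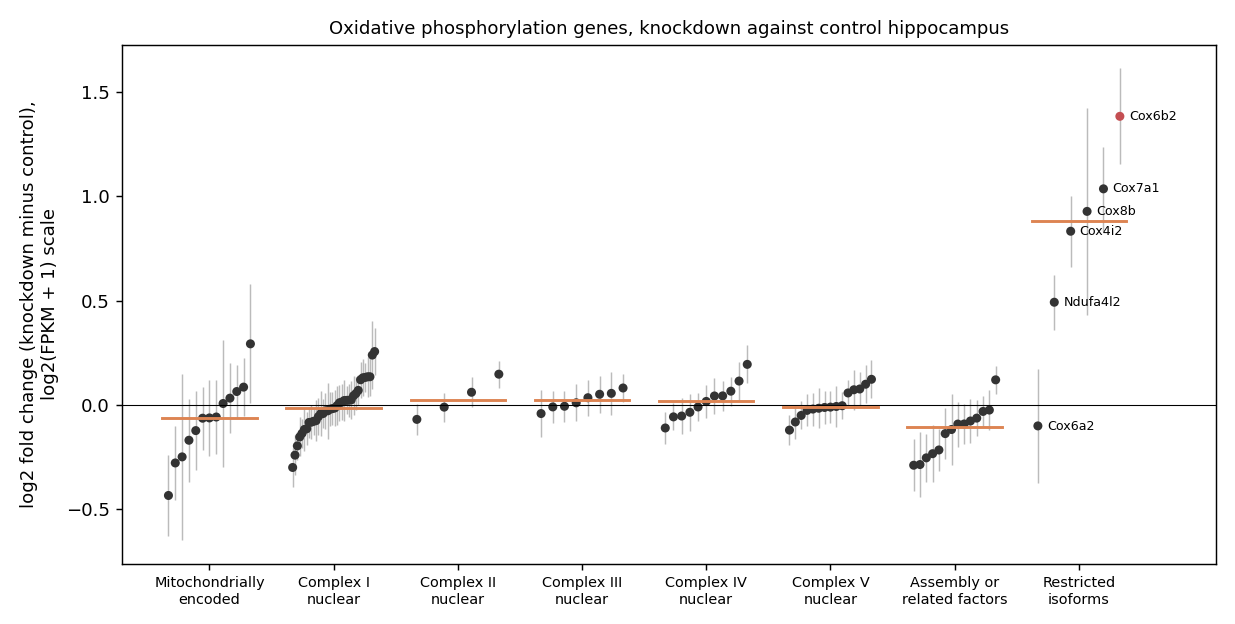
Log2 fold change (knockdown minus control, from log2(FPKM + 1)) of the 107 tested members, grouped by genome, complex and role. Points are genes (red, adjusted p under 0.05), grey bars the standard error from limma, and orange lines the group medians. The nuclear common subunits lie between -0.30 and 0.25, while 5 of 6 restricted isoforms lie above 0 and the group's median is 0.88.

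The 74 nuclear common subunits were abundant, at a median of 51.7 FPKM and a range of 2.09 to 618, and 0 of them passed the test. Their log2 fold changes had a median of -0.01, against 0.02 over all tested genes, with 34 above 0 and 40 below. That median ran from -0.04 without control 2 to 0.03 without knockdown 3. The 95% interval lay within 1.5-fold either way for 73 of the 74, compared with 71.5% of all tested genes, and within 1.25-fold for 59. The one exception was Ndufa1, an accessory subunit of complex I, at 71.3, 53.3 and 74.4 FPKM in the controls and 93.7, 71.9 and 69.3 in the knockdowns. Across the 6 samples the median coefficient of variation of these subunits was 6.43%.

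Complex IV held the most abundant nuclear messages. Cox6a1, the common form of subunit VIa, was at 606, 589 and 649 FPKM in the controls and 655, 601 and 608 in the knockdowns. Cox8a, the common form of subunit VIII, was at 420, 407 and 454 against 479, 424 and 417. In both genes the groups overlapped. The 11 common subunits of complex IV had a median log2 fold change of 0.02.

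In the ATP synthase, the catalytic-head subunits Atp5a1 (alpha) and Atp5b (beta) were the highest and stood close to each other. Atp5a1 was at 257, 254 and 267 FPKM in the controls and 248, 258 and 244 in the knockdowns. Atp5b was at 249, 227 and 253 against 232, 254 and 232, and neither gene's groups separated. The 15 common subunits of complex V had a median log2 fold change of -0.01 (-0.02 without control 2 and 0.02 without knockdown 1). The 3 genes for the identical c subunit of its rotor kept their order, Atp5g3 at a mean of 69.7 FPKM, Atp5g2 at 30.9 and Atp5g1 at 22.0. Of these, Atp5g2 had knockdown values all below the controls, at 28.9, 30.0 and 29.6 against 32.7, 30.2 and 33.8 FPKM (log2 fold change -0.12, SE 0.07, adjusted p = 0.337, limma), a gap between groups smaller than the spread within the controls. Atp5k, the e subunit of the membrane part, had a log2 fold change of 0.12 (SE 0.09) with overlapping groups.

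Complex II and complex III lay within narrow bounds. Sdha, the flavoprotein that oxidises succinate, was at 114, 110 and 116 FPKM in the controls and 101, 115 and 107 in the knockdowns. Sdhc, a membrane anchor of complex II, was at 20.3, 21.8 and 21.4 against 23.8, 23.6 and 23.2 FPKM, and the groups did not overlap (log2 fold change 0.15, SE 0.06, adjusted p = 0.224, limma). Each of the 8 nuclear complex III subunits overlapped between the groups, and their intervals all lay within 1.25-fold. The highest of these 8, Uqcr10, had means of 127 and 132 FPKM in control and knockdown, and the core protein Uqcrc2 had means of 49.6 and 52.5. The medians of complexes II, III and IV (0.02 each) changed sign under some scalings. Across single omitted libraries, complex III ran from -0.03 (without control 2) to 0.07 (without control 3) and complex IV from -0.02 (without knockdown 1) to 0.05 (without control 3).

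Complex I, which oxidises NADH, has 36 of the 74 common subunits. It held 6 of the 7 common subunits whose knockdown values all lay below the controls. These 6 are 16.7% of its 36, against 11.8% of all tested genes. In 1 of the 36 (Ndufb6, 2.78%) every knockdown value lay above the controls, against 18.0% of all tested genes. Taking both directions, 19.4% of the 36 did not overlap, against 29.9% of all tested genes. The median log2 fold change of the 36 was -0.02, and it ran from -0.05 without control 2 to 0.03 without knockdown 3.

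Ndufb9, an accessory subunit of the membrane arm, was at 146, 143 and 139 FPKM in the controls and 120, 127 and 102 in the knockdowns, a ratio of 0.813 (log2 fold change -0.30, SE 0.09, unadjusted p = 0.0153, adjusted p = 0.123, limma). Ndufs5, another accessory subunit, was at 66.2, 64.3 and 64.8 against 51.2, 63.0 and 51.2 FPKM (log2 fold change -0.24, SE 0.10, adjusted p = 0.186, limma), so that 1 knockdown library lay just under the controls. Ndufv1, the core subunit that binds NADH and FMN, was at 58.9, 53.4 and 55.4 against 48.7, 49.7 and 47.2 FPKM (log2 fold change -0.20, SE 0.07, adjusted p = 0.145, limma). None of these 3 passed the adjusted threshold. The remaining 3 without overlap, Ndufa5, Ndufa9 and Ndufa10, had ratios of 0.907, 0.944 and 0.922. Ndufa8, the second most abundant of the nuclear common subunits of complex I, had means of 115 and 117 FPKM and overlapping groups.

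Some nuclear values carry a limit from shared sequence. At least 50% of the transcript matched other annotated genes (at 98% identity) for Ndufs3, Atp5h, Atp5l, Uqcrb and Atp5f1, with shares from 64.6% to 84.1%. Atp5l (72.2%) had the lowest level of the common subunits, 2.09 FPKM, while Atp5h (80.1%) averaged 89.5 FPKM. Ndufab1 (13.5%) and Ndufb2 (8.63%) were nearly as low as Atp5l, at 2.25 and 2.27 FPKM. How reads that match several places were counted is unstated in the sources used. Levels of the 5 genes matched over at least 50% are therefore uncertain. Ndufs5 (46.9%) and Ndufb9 (28.7%), described above, carry the same limit over a smaller part of the transcript.

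The restricted isoforms held the only member that passed. In the longest protein-coding transcript of Cox6b2, Cox7a1, Cox4i2 and Ndufa4l2, no stretch matched another annotated gene, their partners included, at this identity. Exons outside that transcript were not searched. These 4 are low, from 1.77 to 7.76 FPKM on average, while their common partners run from 66.8 to 129 FPKM.

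Cox6b2 (ENSMUSG00000051811, mm10 chromosome 7, 4751792 to 4753094, minus strand) encodes the form of subunit VIb that is best known from testis. It was at 3.72, 3.09 and 4.47 FPKM in the controls and 15.7, 11.8 and 7.82 in the knockdowns, from 71, 62 and 89 reads and 308, 217 and 151 reads. Every knockdown library stood above every control, and the ratio of the means was 3.13 (log2 fold change 1.38, SE 0.23, adjusted p = 0.0472, limma). The adjusted p ran from 0.0353 to 0.150 over 20 alternatives and lay above 0.05 in 13, among them the omission of any single library other than knockdown 3, while the log2 fold change stayed between 1.17 and 1.63. The common form Cox6b1 was at 129, 122 and 129 FPKM against 129, 139 and 124, with overlapping groups.

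Cox7a1, the form of subunit VIIa of heart and skeletal muscle, was at 1.19, 1.34 and 2.08 FPKM in the controls and 3.80, 3.26 and 5.68 in the knockdowns, or 11, 13 and 20 reads against 36, 29 and 53. The groups did not overlap, and the adjusted p was 0.0534 (log2 fold change 1.04, SE 0.20, limma), and 0.0490 with a pseudocount of 0.1. Over 19 alternatives the adjusted p ran up to 0.165, and in 17 of them Cox7a1 was not called. Its partner Cox7a2 had means of 68.2 and 65.5 FPKM.

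Cox4i2, a form of subunit IV best known from lung and, in mouse brain, from pericytes, was at 1.40, 0.98 and 0.64 FPKM in the controls and 3.01, 2.37 and 2.26 in the knockdowns (9 to 19 reads against 31 to 42). The groups did not overlap and the log2 fold change was 0.83 (SE 0.17, adjusted p = 0.0572, limma). Ndufa4l2, a hypoxia-inducible paralog of the complex IV subunit Ndufa4 that is also found in brain pericytes, was at 2.01, 2.07 and 1.98 FPKM against 3.61, 2.53 and 3.72. These groups did not overlap either (log2 fold change 0.49, SE 0.13, adjusted p = 0.0882, limma). Without knockdown 2, its adjusted p was 0.0499, but it ran up to 0.216 over 19 alternatives, with no call in 17.

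The 2 muscle forms that remain did not separate the groups. Cox8b was at 0, 1.69 and 2.32 FPKM in the controls and 3.45, 4.68 and 1.43 in the knockdowns, where the 0 in control 1 allows up to 3 reads or 0.483 FPKM. Its log2 fold change was 0.93 with an SE of 0.50 (adjusted p = 0.307, limma). Cox6a2 was at 6.40, 4.96 and 6.06 FPKM against 7.05, 6.90 and 2.95, with knockdown 3 the lowest of the 6.

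**Figure D2:**
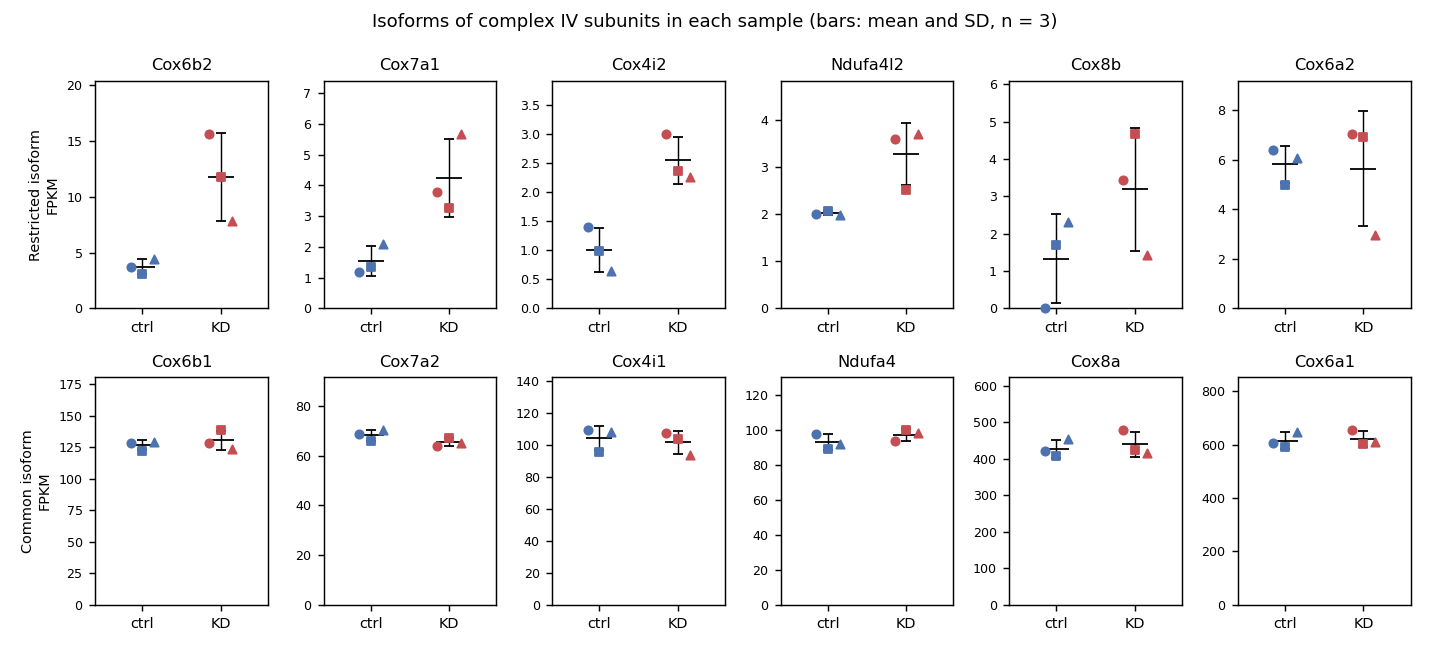
FPKM of 6 restricted complex IV isoforms (top) and their common partners (bottom) in each control (blue) and knockdown (red) sample, with circles, squares and triangles for samples 1, 2 and 3 and bars for mean and SD. In Cox6b2, Cox7a1, Cox4i2 and Ndufa4l2 all knockdown points lie above all control points, whereas every partner overlaps.

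As a share of each isoform pair, Cox6b2 made up 2.88% ± 0.445 (SD, n = 3) of Cox6b1 plus Cox6b2 in the controls and 8.21% ± 2.49 in the knockdowns. Cox7a1 made up 2.19% ± 0.605 and 6.08% ± 1.75 of its pair, Cox4i2 0.955% ± 0.344 and 2.43% ± 0.254, and Ndufa4l2 2.14% ± 0.130 and 3.29% ± 0.707. In each of these 4 the groups were separate, with a two-sided exact permutation p of 0.1, the smallest that 3 against 3 samples allow. The isoform values of these 4 had already been seen to be separate, so this p adds no evidence. The shares of Cox6a2 (0.934% and 0.894% in control and knockdown) and Cox8b (0.307% and 0.716%) overlapped between the groups. The common isoform thus supplied over 90% of the messages of each of these pairs on average in both groups.

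Markers of other cells moved beside these isoforms. All 6 endothelial and mural cell markers lay above 0, with a median log2 fold change of 0.69, 1 of them (Pecam1) past the test, and their summed level ran from 44.2 to 51.3 FPKM in the controls and from 70.1 to 90.1 in the knockdowns. Rgs5, a pericyte marker, had means of 17.7 and 30.2 FPKM. All 6 microglia markers lay above 0 as well (median 0.62), with sums of 183 to 245 FPKM against 305 to 468, and 5 of 6 astrocyte markers did (median 0.11), with 2 past the test, Aqp4 at means of 36.4 and 96.2 FPKM and Gja1 at 21.2 and 36.0. The 3 marker calls were lost in some alternatives, in 12 of 19 for Pecam1, 11 of 18 for Aqp4 and 11 of 20 for Gja1. The 7 neuron markers had a median of -0.20, and the 7 hippocampal neuron markers one of -0.35, with 6 of them below 0. All 7 choroid plexus markers lay above 0 (median 2.07), and their sums overlapped between the groups. The part of these cell types in the isoform values was not tested.

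Promoters of the members are given where they set these isoforms beside common subunits. Nuclear respiratory factor 1 (NRF1) is a well-known activator of respiratory genes, and its site was searched as GCGC, any 2 bases and GCGC again, which reads the same on both strands. In RefSeq promoters of 250 bases before to 50 after the start (GRCm38.p6), 63 of the 74 common subunits matched by symbol or synonym. These letters stood in 19 of the 63 (30.2%), against 7.0% of all 27025 genes with promoters listed (median CG pairs 20 against 8). The 27025 were not filtered by gene type, whereas the 63 are all protein-coding. The NRF1 letters stood in 4 of 14 matched assembly or related factors (28.6%) and in 0 of the 4 matched restricted isoforms (median CG pairs 8.5). These isoforms were Cox6b2, Cox7a1, Cox7b2 and Cox8b, while Cox4i2, Ndufa4l2 and Cox6a2 had no matched promoter and were not searched. A set of 4 is too small for a comparison of shares. Among the common subunits, the letters stood in 9 of 32 for complex I, 2 of 3 for II, 1 of 5 for III, 1 of 9 for IV and 6 of 14 for V. The GABP letters CCGGAAGT, searched on both strands, stood in 5 of the 63 (7.94%, against 4.31% of all). The hypoxia-response core ACGTG stood in 15 of the 63 (23.8%, against 21.8%). It also stood in 2 of the 4 matched restricted isoforms, Cox7a1 and Cox8b. A match is a description of letters and says nothing of binding. The common subunit Cox6a1 (chr5:115348909-115349208, minus strand), with 2 NRF1 matches in capitals, is shown with the pair Cox6b1 (chr7:30626065-30626364, minus strand) and Cox6b2 (chr7:4753045-4753344, minus strand), which hold none of the 3 motifs, and Cox7a1 (chr7:30183921-30184220, plus strand), where capitals mark the hypoxia core on the opposite strand:
Cox6a1: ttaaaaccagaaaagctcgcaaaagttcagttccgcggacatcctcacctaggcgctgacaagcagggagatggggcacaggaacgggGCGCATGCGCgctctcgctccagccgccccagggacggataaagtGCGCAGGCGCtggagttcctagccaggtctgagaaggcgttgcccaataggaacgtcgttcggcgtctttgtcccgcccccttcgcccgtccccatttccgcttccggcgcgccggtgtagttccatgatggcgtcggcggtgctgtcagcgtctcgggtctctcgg
Cox6b1: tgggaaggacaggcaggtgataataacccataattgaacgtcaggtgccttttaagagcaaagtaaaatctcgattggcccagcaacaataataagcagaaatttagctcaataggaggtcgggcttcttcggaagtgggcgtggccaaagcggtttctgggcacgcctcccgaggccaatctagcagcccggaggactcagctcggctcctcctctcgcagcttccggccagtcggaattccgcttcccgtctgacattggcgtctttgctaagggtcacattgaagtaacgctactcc
Cox6b2: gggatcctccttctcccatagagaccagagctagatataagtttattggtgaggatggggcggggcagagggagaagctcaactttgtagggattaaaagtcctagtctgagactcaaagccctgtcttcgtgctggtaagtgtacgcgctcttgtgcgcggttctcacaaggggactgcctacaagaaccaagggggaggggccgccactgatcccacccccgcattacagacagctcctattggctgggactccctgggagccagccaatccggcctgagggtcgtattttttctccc
Cox7a1: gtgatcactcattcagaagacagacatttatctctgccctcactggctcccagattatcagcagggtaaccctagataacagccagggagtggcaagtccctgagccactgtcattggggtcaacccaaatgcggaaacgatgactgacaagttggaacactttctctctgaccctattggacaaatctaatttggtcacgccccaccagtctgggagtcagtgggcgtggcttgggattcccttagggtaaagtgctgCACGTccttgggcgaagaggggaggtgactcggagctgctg

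The 15 assembly or related factors build the complexes or join them without being fixed subunits. Of the 14 tested, 0 passed, 13 lay below 0 and 1 above, with a median log2 fold change of -0.11 that moved to -0.19 without knockdown 2. Atp5sl, whose product helps to assemble complex I, was at 12.3, 12.7 and 13.0 FPKM in the controls and 11.5, 11.1 and 8.21 in the knockdowns, with no overlap (log2 fold change -0.29, SE 0.12, adjusted p = 0.212, limma). Sdhaf3, a complex II assembly factor, was at 2.20, 2.21 and 1.77 against 1.44, 1.48 and 1.77 FPKM, so that control 3 and knockdown 3 nearly met. The single member above 0, Cox7a2l, a factor that joins complexes III and IV into supercomplexes, was at 117, 109 and 119 against 128, 123 and 123 FPKM. Atp5s, a factor bound to the ATP synthase, had means of 8.17 and 6.88 FPKM and overlapping groups. Sdhaf1, too low for the test, had control reads of 8, 14 and 5 and knockdown reads of 1, 4 and 3, and 69.6% of its transcript matched other genes.

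The 13 mitochondrially encoded messages made up the bulk of the pathway's RNA. Their sum was 34132, 35047 and 27999 FPKM in the controls and 27205, 37208 and 31014 in the knockdowns, against 5637, 5308 and 5766 and 5647, 5683 and 5367 for the nuclear members. The lowest and the second lowest mitochondrial sums came from different groups, and the highest from knockdown 2. As a share of all FPKM the mitochondrial messages held 11.2% ± 1.23 (SD, n = 3) in the controls and 10.8% ± 1.54 in the knockdowns, a difference smaller than either SD. Both the sum and the share are uncertain, because several of the messages match a copy on chromosome 1 (below). The ratio of knockdown to control means was 0.982 for the mitochondrial and 0.999 for the nuclear sum. Mitochondrial ribosomal RNA ran from 3021 to 4225 FPKM in the controls and from 2842 to 4655 in the knockdowns and had the same order of samples as the message sum.

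None of the 13 passed the test, and in each the groups overlapped. The log2 fold changes ran from -0.44 to 0.29 with a median of -0.06 (-0.19 without knockdown 2 and 0.08 without knockdown 1) and a median SE of 0.18, so that 7 of 13 intervals lay within 1.5-fold. The spread over the 6 libraries was wider than for nuclear subunits, with a median coefficient of variation of 18.3%.

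By level the messages formed 2 sets. In the upper set of 7, at means of 1618 to 11299 FPKM, were mt-Co1, the catalytic subunit of complex IV, mt-Cytb of complex III and the complex I subunits mt-Nd1, mt-Nd2, mt-Nd5, mt-Nd4 and mt-Nd6. mt-Co1 was at 12253, 12315 and 10046 FPKM in the controls and 9537, 12788 and 10853 in the knockdowns. mt-Cytb was at 6995, 6827 and 5925 against 6275, 7746 and 6635 FPKM. In both genes knockdown 2 was the highest library, and control 3 was low. mt-Nd1 was at 4856, 4897 and 3656 FPKM against 3107, 4946 and 3964, with knockdown 1 the lowest. The means of mt-Nd2, mt-Nd5, mt-Nd4 and mt-Nd6 were 3319, 2938, 1831 and 1618 FPKM. mt-Nd6 lies on the strand opposite to the other 12, and no strand-marking step is recorded, so reads from opposite strands there cannot be told apart.

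In the lower set of 6, at means of 3.22 to 53.7 FPKM, were the complex IV subunits mt-Co2 and mt-Co3, the ATP synthase subunits mt-Atp6 and mt-Atp8, and mt-Nd4l and mt-Nd3 of complex I. mt-Co2 was at 44.0, 62.0 and 49.9 FPKM in the controls and 38.1, 86.9 and 41.4 in the knockdowns. mt-Atp6, the proton channel subunit, was at 27.9, 30.6 and 21.5 against 14.7, 20.4 and 23.8 FPKM (log2 fold change -0.44, SE 0.19, adjusted p = 0.229, limma). The groups overlapped through knockdown 3, which lay above control 3. mt-Co3 had means of 29.9 and 24.6 FPKM, mt-Nd4l of 9.78 and 12.3, and mt-Nd3 of 5.41 and 5.16. mt-Atp8 was at 3.13, 4.33 and 2.73 against 3.87, 4.42 and 0.844 FPKM, where the last value stands for 3 reads.

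**Figure D3:**
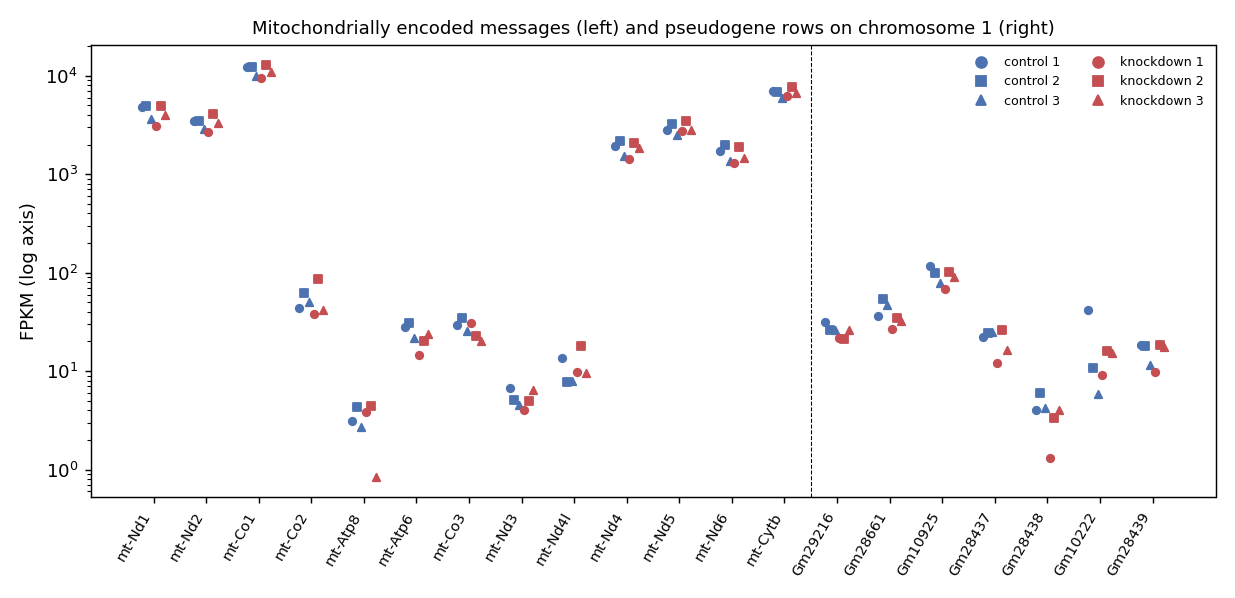
FPKM (log axis) of the 13 mitochondrially encoded messages, in their order on the mitochondrial genome, and of 7 pseudogene rows on chromosome 1 in each sample (blue, control; red, knockdown; circles, squares and triangles for samples 1, 2 and 3). The messages from mt-Co2 to mt-Nd4l lie at 3.22 to 53.7 FPKM on average, at levels like the pseudogene rows, and the others lie above 1000 FPKM.

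The 6 low messages are adjacent on the mitochondrial genome, and 5 of them have a nearly full copy in an insert of mitochondrial DNA on chromosome 1. The insert is annotated as 7 unprocessed pseudogene rows between positions 24611535 and 24616197 of mm10 chromosome 1, minus strand. Against these rows mt-Co2, mt-Atp6, mt-Co3 and mt-Nd4l were identical over 681, 678, 783 and 294 aligned bases, which is nearly the whole message. mt-Nd3 differed at 1 base, T3C, counted from the first base of the message, with the mitochondrial base first. The message mt-Atp8 overlaps the start of mt-Atp6, and its bases 162 to 204 (43 bases, 21.1% of the message) stood unchanged in Gm10925, the copy of mt-Atp6. No longer run of it was found in these rows, which leave a gap of 233 bases (24614652 to 24614884) between the copies of mt-Atp6 and mt-Co2. Of the upper set, mt-Co1 matched the insert over 31.3% of its length and mt-Nd4 over 63.6%.

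The sequences show what separates message and copy. The first 60 bases of mt-Nd3 and of its copy Gm28438, bases 1063 to 1122 of mt-Co1 and of its copy Gm29216, and the first 60 bases of mt-Co3 and of its copy Gm28437 (GENCODE M21 transcripts, mm10) follow, with the differing base in capitals:
mt-Nd3: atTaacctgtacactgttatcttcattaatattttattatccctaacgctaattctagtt
Gm28438: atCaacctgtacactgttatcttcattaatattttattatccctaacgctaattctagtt
mt-Co1: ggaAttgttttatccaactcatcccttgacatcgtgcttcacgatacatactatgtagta
Gm29216: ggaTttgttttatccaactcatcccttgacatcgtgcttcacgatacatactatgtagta
mt-Co3: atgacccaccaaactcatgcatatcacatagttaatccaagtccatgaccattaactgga
Gm28437: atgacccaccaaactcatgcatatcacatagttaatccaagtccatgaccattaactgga
The mt-Co1 difference is A1066T, and mt-Co3 and its copy hold none in this window.

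The pseudogene rows were listed at means of 3.79 to 92.4 FPKM. Gm10925, the copy of mt-Atp6, was at 116, 99.4 and 77.6 FPKM in the controls and 69.0, 102 and 90.2 in the knockdowns, a level above the mt-Atp6 row itself. The levels of the 5 messages and of these rows are therefore uncertain, and how reads matching both were counted is unstated in the sources used. The same limit holds for the matched parts of mt-Co1 and mt-Nd4. The part of the shared sequence in the low set was not tested, and mt-Atp8 was the lowest of all.

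Other genes of mitochondrial energy supply were read from lists in the same fit. Of 31 tested assembly factors outside the name stems, 0 passed, 13 lay above 0 and 18 below (median log2 fold change -0.05, with -0.08 without control 2 and -0.03 without knockdown 1). Uqcc1, an assembly factor of complex III, was at 9.20, 8.26 and 8.77 FPKM in the controls and 5.04, 7.45 and 5.61 in the knockdowns, with no overlap (log2 fold change -0.48, SE 0.13, adjusted p = 0.0906, limma). Its adjusted p was 0.0480 without knockdown 2, but it ran up to 0.230 over 20 alternatives, with no call in 18. Of 76 mitochondrial ribosomal proteins, which translate the 13 messages, 0 passed, 25 lay above 0 and 51 below (median -0.06, and -0.10 without knockdown 2). In 15 of them (19.7%) every knockdown value lay below every control value, against 11.8% of all tested genes. In 4 (5.26%) every one lay above, against 18.0% of all tested genes. Taking both directions, 25% did not overlap, against 29.9% of all tested genes. Mrpl44 had means of 10.1 and 7.90 FPKM.

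Upstream of the chain, 0 of 20 genes of the TCA cycle and pyruvate dehydrogenase passed, with 14 above 0 and 6 below (median 0.05). Idh2, the NADP-dependent mitochondrial isocitrate dehydrogenase, was at 15.8, 14.5 and 16.1 FPKM in the controls and 28.1, 21.8 and 22.0 in the knockdowns, a ratio of 1.55 and an adjusted p of 0.050 that just missed the threshold (limma, 0.0336 to 0.162 over the alternatives). Idh3b, a subunit of the NAD-dependent enzyme, had means of 66.1 and 57.4 FPKM and groups that did not overlap. Of 16 glycolysis genes 0 passed, but 14 lay below 0 (median -0.21) and 11 had every knockdown value below every control value, against 11.8% of all tested genes. Aldoa, the muscle and brain aldolase, was at 327, 356 and 362 FPKM against 254, 277 and 306 (log2 fold change -0.32, SE 0.09, adjusted p = 0.104, limma). Pkm, pyruvate kinase, had means of 228 and 193 FPKM and Eno2, the neuronal enolase, of 165 and 143, beside neuron marker sums of 850 to 870 FPKM in the controls and 699 to 881 in the knockdowns. The part of neuron content in these values was not tested.

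Of 26 genes of mitochondrial biogenesis and mitochondrial genome expression 0 passed, with 11 above 0 and 15 below (median -0.04, and 0.01 without knockdown 3). Twnk, the mitochondrial DNA helicase, had means of 4.99 and 6.50 FPKM, and Esrra, a nuclear receptor that activates respiratory genes, of 22.5 and 26.1. Cytochrome c and the inner membrane carriers (10 genes, 0 passed) had a median of -0.005 (0.02 without knockdown 1), and the 76 cytosolic ribosomal proteins (0 passed) a median of 0.06 (0.01 without knockdown 1 and 0.13 without knockdown 3).

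**Figure D4:**
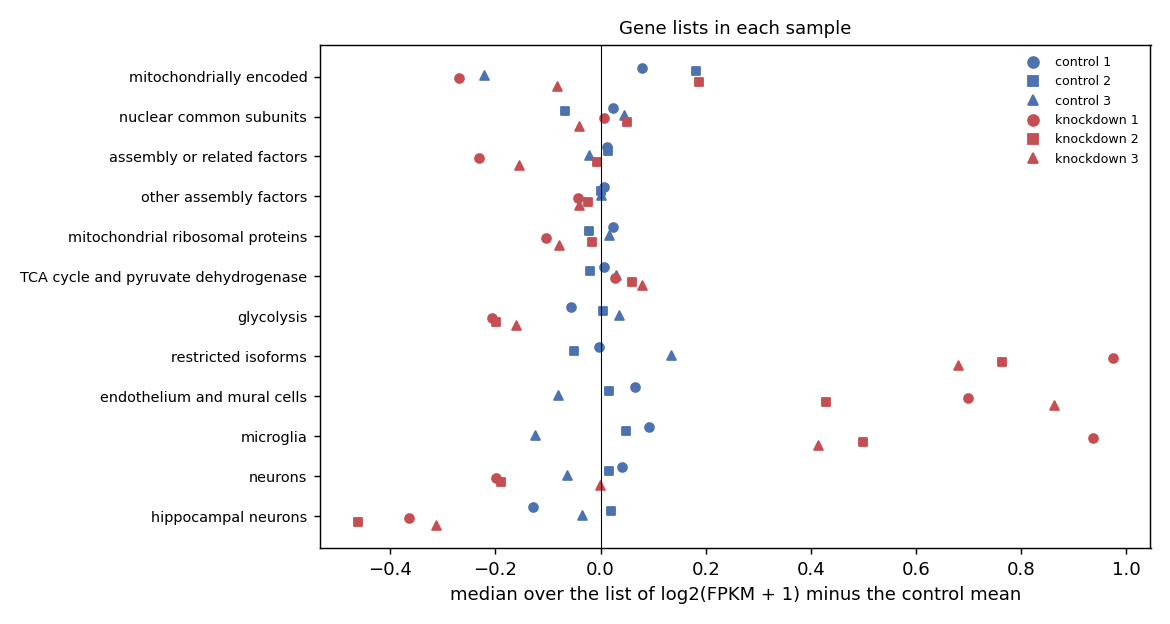
Median over each gene list of log2(FPKM + 1) minus the gene's control mean, in each sample (blue, control; red, knockdown). Nuclear common subunits stay between -0.07 and 0.05 in all 6 samples, mitochondrially encoded messages spread from -0.27 to 0.19 without separating the groups, and the 3 knockdown samples stand apart for glycolysis, hippocampal neurons and, by a small margin, the other assembly factors (lower) and for restricted isoforms, endothelium and mural cells, and microglia (higher).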

How the data were processed

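RNA was sequenced from 6 hippocampus samples. Per the labels' protocols, total RNA (1.5 µg) was enriched for poly(A) RNA, fragmented and copied with random primers. Per the submitters' processing notes the build was mm10. The aligner and counter were not given in the sources used here. FPKM values per gene, in 1 table, are what the authors deposited.

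The 14012 genes averaging 1 FPKM or more were fitted on log2(FPKM + 1), a pseudocount that understates changes of low genes, with limma 3.58.1 in R 4.3.3 (group as the only term, mean-variance trend, two-sided, Benjamini-Hochberg adjustment, called under 0.05). FPKM times GENCODE M21 exon length was divided by the step of a single read, estimated from the values of each library. This gave whole reads (within 0.01) for 90.9% to 91.1% of values. The read numbers and library sizes are inferred in this way rather than recorded, and a value of 0 allows 3 reads. Such floors cover counting error only. Shared sequence was found with blastn 2.17.0, from the longest protein-coding transcript of each member. The procedure was tested on simulated data.

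Named genes were the mitochondrially encoded members, called members, the 3 of smallest p and 2 of highest level per complex, the isoform pairs and the 3 of smallest p per other list, not all of which are printed. Ndufa1, Cox7a2l, Sdhaf1, Ndufa9, Ndufa10, Ndufa5, Ndufb6, the 4 glial and vessel markers and the genes of shared sequence were named after their values were seen. Members, roles and lists were chosen with earlier results of these data known. Alternatives were other pseudocounts, filters, scalings, variance settings and weights, voom on recovered reads, a replicate block, an adjusted p of 0.1 and each sample left out. The main model on voom's genes was added after seeing the data.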

Additional observations from a re-analysis of the deposited data

How the results depend on the processing

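The 107 members gave 1 higher call and 0 lower. The lower count stayed at 0 in all 20 alternatives. The higher count was 2 with a pseudocount of 0.1 and 4 at an adjusted p under 0.1. It was 0 with no filter, with scaling to the FPKM sum (with or without mitochondrially encoded genes), by the median ratio or by quantiles, without the variance trend, and on the same genes without voom, and 0 to 1 when a sample was left out. Without knockdown 2 the single call was Ndufa4l2 instead of Cox6b2.

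All genes gave 168 higher and 32 lower calls. The counts were 290 and 64 with a pseudocount of 0.1, 274 and 64 with 0.5, and the lower count was 65 with a filter at 5 FPKM. They were 498 and 96 with voom, 106 and 20 on the same genes without it, and 983 and 352 at an adjusted p under 0.1. They were 1 and 2 with scaling to the FPKM sum, 33 and 5 when mitochondrially encoded genes were left out of that sum, and 9 and 6 with the median ratio. Both were 0 with no filter, quantiles or no variance trend, and ran from 0 to 160 and 0 to 30 when a sample was left out. The causes were not tested.

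The median of the restricted isoforms, 0.88, was 1.36 and 1.13 with pseudocounts of 0.1 and 0.5, 0.64 with a filter at 5 FPKM, which leaves only Cox6b2 and Cox6a2, 1.40 with voom, and 0.71 to 0.94 when a sample was left out. That of the assembly or related factors, -0.11, ran from -0.194 to -0.091 when a sample was left out. The difference in mitochondrial share, -0.376 percentage points, ran from -1.21 (without knockdown 2) to 0.310 (without knockdown 1).

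With the replicate block the count was 0 members, and 0 higher and 0 lower over all genes. Same-numbered samples deviated together at r = 0.050, 0.043 and -0.008, and differently numbered ones at -0.132 to 0.083. These values show no pairing by number, but with 3 samples per group they cannot exclude it, and the labels do not state it. Low messages, such as mt-Atp8 at 3 to 16 reads, limit what depth can show.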
